A study of Arabidopsis thaliana with 12 samples.

Results

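CDF1, CDF2, CDF3, CDF5, COR27, COR28, PIF4, PIF5, GRP7 and GRP8, which carry the daily rhythm of the plant circadian clock into other processes, were followed in seedling roots of Arabidopsis thaliana. These 10 genes were chosen by name and gene identifier out of 33602 genes tested in the study. Earlier results of these data were known when they were chosen, and 9 of them appear in the files. Roots were harvested 6 days after germination from wild-type plants of Col-0 (WT) and from plants of the same accession labelled trm4b-1, grown on MS plates that held either no paraquat (control) or 0.01 uM of it. Paraquat is a herbicide that causes superoxide to form in cells. The 12 libraries of rRNA-depleted RNA fall into 4 groups of 3, which the series calls biological replicates. The labels give the age of the seedlings but not the hour of day at which each group was harvested.

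The plant clock is a set of transcription factors that repress each other in turn over the day. The MYB factors CCA1 and LHY act in the morning and repress genes of the evening, many of which carry a promoter sequence called the evening element. The clock reaches the rest of the cell through output genes. The CDF genes encode DOF transcription factors, made around dawn, that repress the flowering regulator CO until FKF1 and GI mark them for degradation. COR27 and COR28 are cold-induced evening genes whose proteins take part in the repression of clock genes. PIF4 and PIF5 encode bHLH factors of growth that phytochromes destabilise in light. GRP7 and GRP8 encode glycine-rich RNA-binding proteins that peak towards dusk and lower the productive splicing of their own and each other's RNA.

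Promoter sequence is shown for COR28, GRP7 and GRP8, the members with an evening element among the 9 searched. All 3 of these genes fell with paraquat in WT, as did PIF4 and PIF5, whose windows held no such element. A link between the element and the response to paraquat was not tested. The element was searched as AAAATATCT on both strands, from 250 bases before to 50 bases after the RefSeq gene start in TAIR10.1. It was found in COR28 (1 match), GRP7 (3) and GRP8 (1), and in none of the windows of the 4 CDF genes, PIF4 and PIF5. Of all 37899 windows, 2.49% held it. Each sequence below reads 5′ to 3′ along its gene, which lies on the minus strand in all 3 cases, and capitals mark the evening elements. Those of GRP7 and GRP8 are the 250 bases before the start. That of COR28 is a stretch of 29 bases that begins at base 22 after the start, since its element begins at base 32.
COR28, chr4:16285180-16285208: gctccaaaaaAAAATATCTggctgatatt
GRP7, chr2:9266558-9266807: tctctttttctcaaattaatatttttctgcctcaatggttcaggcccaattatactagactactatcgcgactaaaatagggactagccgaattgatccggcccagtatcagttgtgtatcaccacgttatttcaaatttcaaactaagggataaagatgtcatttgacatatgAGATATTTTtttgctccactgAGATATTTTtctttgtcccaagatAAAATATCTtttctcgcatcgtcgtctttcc
GRP8, chr4:18275217-18275466: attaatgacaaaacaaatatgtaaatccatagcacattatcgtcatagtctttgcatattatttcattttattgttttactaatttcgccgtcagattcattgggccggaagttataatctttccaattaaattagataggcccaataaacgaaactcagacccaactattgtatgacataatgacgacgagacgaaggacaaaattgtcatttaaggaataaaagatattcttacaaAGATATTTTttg

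The elements of GRP7 begin at bases -76, -55 and -31 from the start, and that of GRP8 at -12. These positions depend on the annotation. The first exonic base in the authors' deposited tables lies further into the gene than the RefSeq start in all 9 members listed, by 66 bases in CDF3 to 330 bases in PIF5. For COR28 it is 170 bases, so its element lies before the first deposited base. The other 4 motifs were found in 1 to 3 of the 9 members searched, and the evening element in 3. The CCA1 binding site AAAAATCT was found once each in COR28 and CDF5 (7.13% of all windows), and the G-box CACGTG once each in CDF2, PIF5 and GRP7 (6.46%). The DRE core CCGAC, known from cold-responsive promoters, occurred in CDF3 with 2 matches (15.3% of all windows). The LUX binding site, searched as GATTCG and GATACG, occurred once in CDF2 (14.4%). The windows of CDF1 and PIF4 held none of these 5 motifs. A match describes the letters in the window and was not tested as a binding site.

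**Figure D1:**
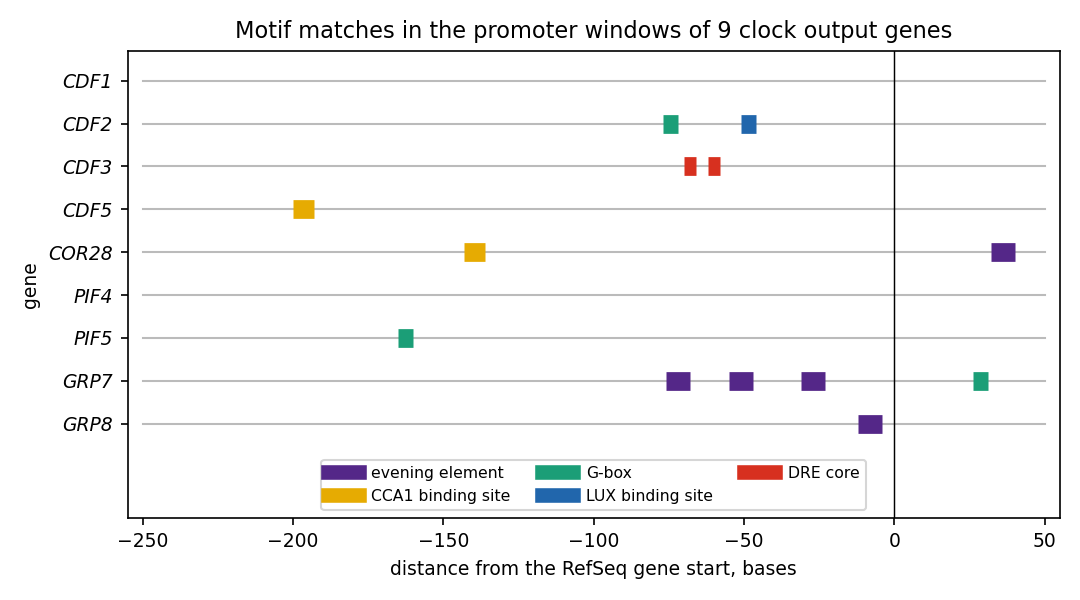
Motif matches in the promoter windows of 9 of the genes, with distance in bases from the RefSeq gene start (vertical line) on the x axis and 1 line per gene. Evening elements (purple) lie in COR28, GRP7 and GRP8, and begin between base -76 and base 32.

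Only 5 tables of comparisons made by the authors were used, and none gives values for single samples. The level of each gene in each library, the depth of the libraries and the overlap between single replicates are therefore unknown, and root markers could not be checked by level. Each table lists the genes with an adjusted p under 0.1. A gene is called changed, risen or fallen here when its deposited adjusted p is under 0.05, from limma as named in the submitters' processing notes. Differences are taken as log2 values, which limma gives, because no base is stated. Each ± is a standard error computed from a deposited difference and its p. Table names give the order of the groups, read as paraquat minus control and trm4b-1 minus WT. The tables add up in that order, but they would also add up if every sign were turned, so each direction rests on this reading. TRM4B (AT2G22400), which encodes an RNA cytosine methyltransferase and gives the genotype its name, had more RNA in the libraries labelled trm4b-1. The difference was 2.89 ± 0.08 on control medium and 3.90 ± 0.08 on paraquat in the authors' deposited tables. The label of a mutant is thus not borne out by a loss of RNA of the gene named. Whether the RNA was full length cannot be read from these values, and the genotype is named by its label throughout.

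With paraquat in WT, COR27, COR28, PIF4, PIF5, GRP7 and GRP8 fell, and CDF1 and CDF3 rose. These are 8 of 10 members, beside 17.0% of all genes tested. The 6 that fell stand beside 9.01% of all genes and the 2 that rose beside 7.99%. CDF5 was listed without being called, which makes 9 of 10 listed beside 21.6% of all genes, and CDF2 was not listed. In the libraries labelled trm4b-1, COR27, COR28 and GRP7 fell and CDF1, CDF3 and CDF5 rose with paraquat. These are 6 of 10 members, beside 9.05% of all genes, with 3 lower beside 4.33% and 3 higher beside 4.72%. No further member was listed in that table, beside 12.2% of all genes. The median was -1.98 over the 9 members listed in WT and -0.45 over the 6 listed in the libraries labelled trm4b-1, which are different sets and cannot be set against each other. Over all called genes it was 0.75 among rises and -0.70 among falls in WT, and 0.84 and -0.69 in the libraries labelled trm4b-1. With both directions together, as for the members, it was -0.32 in WT and 0.34 in the libraries labelled trm4b-1. In WT the median of the members also covers CDF5, which was not called. The comparisons within WT and within trm4b-1 share no sample. A gene's standard errors in them were alike (median ratio 1.00), so calls in both were not taken as independent. Of the 33602 genes tested, 2203 were called in both comparisons, and of the 10 members 5 were. Of these 2203 genes, 2190 changed in the same direction.

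**Figure D2:**
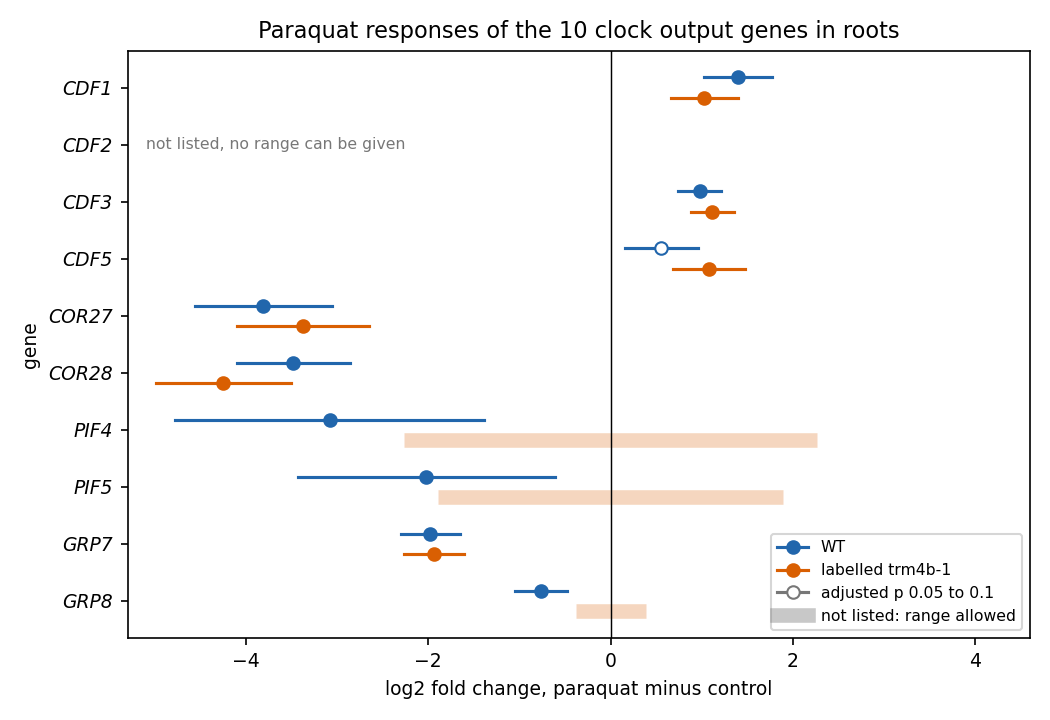
Log2 fold change with paraquat (x axis) of each of the 10 genes in WT (blue) and in libraries labelled trm4b-1 (orange), with 95% intervals from the authors' deposited values. Pale bars give the range within which an unlisted difference could lie. COR27 and COR28 lie between -3.38 and -4.25, GRP7 near -1.98 and -1.94, and the CDF genes between 0.56 and 1.4.

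Every listed difference of a CDF gene with paraquat was positive, in both genotypes. CDF1 (AT5G62430, chromosome 5, 25069093 to 25070934 in TAIR10, minus strand, 1 intron) represses CO and is the best known of the group. It rose by 1.4 ± 0.18 in WT (adjusted p = 4.97e-05), which is 2.64-fold, in the authors' deposited table. The rise was 1.03 ± 0.17, or 2.04-fold, in the libraries labelled trm4b-1, with an adjusted p of 0.000974 in the authors' deposited table. CDF3 (AT3G47500, chromosome 3, 17504000 to 17506058, minus strand, 1 intron), also known from drought and cold tolerance, had the smallest error of the members. It rose by 0.98 ± 0.11 in WT (adjusted p = 2.36e-05) and by 1.12 ± 0.11 (adjusted p = 6.28e-06) in the libraries labelled trm4b-1, from the authors' deposited tables. Both values are close to a doubling of the RNA (1.97-fold and 2.17-fold).

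CDF5 (AT1G69570, chromosome 1, 26161528 to 26163496, minus strand, 1 intron) rose by 1.08 ± 0.18 (adjusted p = 0.00107) in the libraries labelled trm4b-1, from the authors' deposited table. Its difference in WT was 0.56 ± 0.19 (adjusted p = 0.0550) in the authors' deposited table, just outside the threshold. A long noncoding RNA gene on the opposite strand, AT1G69572, overlaps CDF5 by 1241 bases in the RefSeq annotation, and its deposited exons lie on chromosome 1 between 26161599 and 26162761. AT1G69572 moved the other way from CDF5. It fell by 1.17 in WT (-1.17 ± 0.33, adjusted p = 0.0219) and by 2.00 (-2.00 ± 0.36, adjusted p = 0.00185) in the libraries labelled trm4b-1, from the authors' deposited tables. Whether counting used strand is not given in the sources used here, so reads of this sense and antisense pair cannot be told apart here. CDF2 (AT5G39660), which like CDF1 represses CO, was listed in none of the 5 tables, and with no standard error no range can be given for it.

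COR27 and COR28 had the largest differences of the 10 genes. Both encode small proteins that bind the light regulators COP1 and HY5. COR27 (AT5G42900, chromosome 5, 17197641 to 17199793, minus strand, 5 introns in the deposited exons) fell by 3.81 in WT (-3.81 ± 0.35, adjusted p = 3.12e-06) in the authors' deposited table, to a level 14.0-fold lower. Its fall was 10.4-fold (-3.38 ± 0.34, adjusted p = 7.24e-06) in the libraries labelled trm4b-1, again from the authors' deposited table. COR28 (AT4G33980, chromosome 4, 16282696 to 16285059, minus strand, 4 introns) fell by 3.48 in WT (-3.48 ± 0.29, adjusted p = 1.09e-06), which is 11.2-fold, from the authors' deposited table. With 19.0-fold (-4.25 ± 0.35, adjusted p = 9.04e-07) in the libraries labelled trm4b-1, COR28 had the largest difference of any member in the authors' deposited tables. By size, COR27 and COR28 were the 13th and 23rd of 3026 genes that fell in WT, and the 17th and 7th of 1454 in the libraries labelled trm4b-1. Of 2887 genes listed in both paraquat tables, 2 were at least as low as COR28 in both and 5 were at least as low as COR27. In RNA of whole roots, fewer cells of a type and less RNA per cell cannot be told apart.

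**Figure D3:**
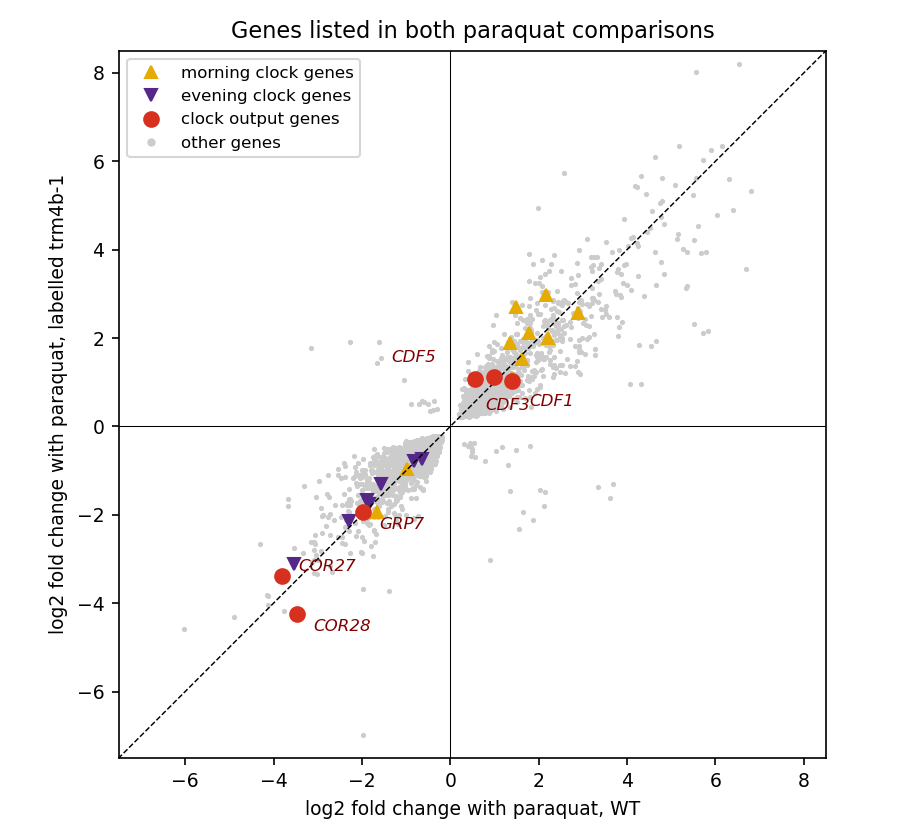
Log2 fold change with paraquat in WT (x axis) and in libraries labelled trm4b-1 (y axis) for the 2887 genes listed in both tables, with the line of equal response dashed. The 6 members listed in both (red) lie near this line, COR27 and COR28 at its lower end near ELF4, the lowest of the evening clock genes (purple), and the CDF genes on the side of most morning clock genes (yellow).

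PIF4 and PIF5 fell in WT and were not listed in the libraries labelled trm4b-1. PIF4 (AT2G43010, chromosome 2, 17886427 to 17889050, plus strand, 6 introns), which drives elongation growth in warmth and shade, fell by 3.08 (-3.08 ± 0.80, adjusted p = 0.0132) in the authors' deposited table. PIF5 (AT3G59060, chromosome 3, 21827978 to 21830507, minus strand, 5 introns), its close relative, fell by 2.02 (-2.02 ± 0.66, adjusted p = 0.0483) in the authors' deposited table, just inside the threshold. These values are the least precise among the members. The standard error of PIF4 was exceeded by 15 and that of PIF5 by 109 of the 5711 genes called in WT, for which the median was 0.147. In the libraries labelled trm4b-1, the difference with paraquat could have reached 2.26 in either direction for PIF4 and 1.89 for PIF5 without being listed. These bounds assume the same standard error there as in WT. Such a range includes sizable falls, so a missing entry does not show that PIF4 and PIF5 were steady there.

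GRP7 (AT2G21660, chromosome 2, 9265249 to 9266393, minus strand, 1 intron) fell in both genotypes. The value was -1.98 ± 0.15 in WT (adjusted p = 4.33e-07) and -1.94 ± 0.15 (adjusted p = 5.57e-07) in the libraries labelled trm4b-1, from the authors' deposited tables, or 3.94-fold and 3.83-fold lower. By p, GRP7 ranked 79th and 92nd among all genes tested and had the lowest p of the members in both tables. GRP8 (AT4G39260, chromosome 4, 18273899 to 18275079, minus strand, 1 intron), its paralog, fell by 0.76 in WT (-0.76 ± 0.14, adjusted p = 0.000942), which is 1.69-fold, in the authors' deposited table. GRP8 was not listed in the libraries labelled trm4b-1, where a difference of more than 0.38 in either direction would have been listed with the standard error it had in WT. In WT the 95% intervals of GRP7 (-2.30 to -1.66) and GRP8 (-1.05 to -0.47) did not overlap, but the difference between the genes was not tested. Their coding sequences share 78.6% of aligned bases and an identical run of 39 bases, so reads could have been shared between these paralogs, depending on the read length. For COR27 and COR28 the identity was 65.4% with a longest run of 11 bases, and for PIF4 and PIF5 it was 78.8% with 23 bases.

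Whether the paraquat response of a member differed between the genotypes is what the interaction table tests. None of the 10 members was listed there, beside 0.943% of all genes listed and 0.318% called (limma, deposited adjusted p). For the 6 members listed in both paraquat tables the difference of the responses, trm4b-1 minus WT, was rebuilt from the authors' deposited tables, and each 95% interval included 0. The most closely bounded was CDF3, with 0.14 (-0.20 to 0.48), followed by GRP7 with 0.04 (-0.42 to 0.50). COR27 had 0.43 (-0.61 to 1.48) and COR28 -0.77 (-1.74 to 0.19), so that these falls could differ between the genotypes by a factor of more than 2 in either gene. CDF1 had -0.37 (-0.90 to 0.15), and CDF5 had 0.53 (-0.03 to 1.09), the interval that came closest to leaving out 0. For GRP8 an interaction of up to 0.78 in size would not have been listed. The call of GRP8, PIF4 and PIF5 in WT alone is therefore not shown to differ from the libraries labelled trm4b-1.

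**Figure D4:**
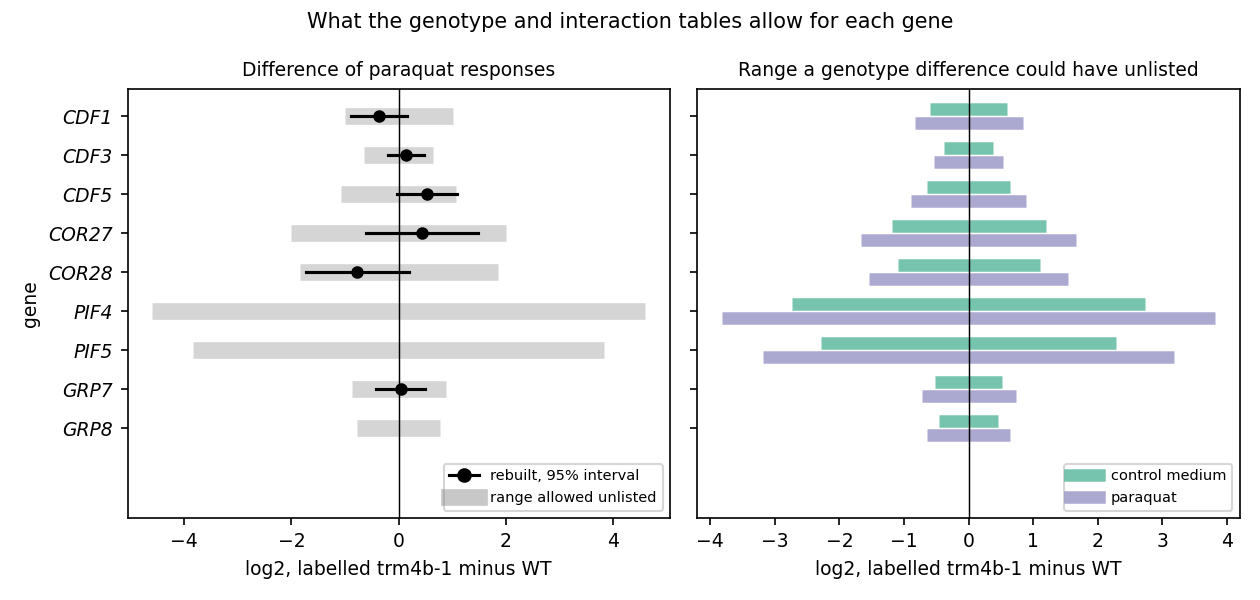
Left, the difference of the paraquat responses on the log2 scale (x axis) for 9 genes, with the rebuilt value and its 95% interval for 6 of them and the range allowed without a listing in grey. Right, the range that a genotype difference on control medium (green) or paraquat (violet) could have without being listed. All 6 rebuilt intervals include 0, and the ranges are narrowest for CDF3 and widest for PIF4.

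Between the genotypes no member was listed, either on control medium (0 of 10, beside 3.65% of all genes listed and 2.03% called) or on paraquat (0 of 10, beside 0.223% listed and 0.143% called), in limma's deposited adjusted p. A count of 0 of 10 is near these background shares. What the tables allow varied from gene to gene. On control medium CDF3 could have differed by up to 0.38, GRP8 by 0.46, GRP7 by 0.52, CDF1 by 0.60 and CDF5 by 0.64 without being listed, given the standard errors of their paraquat comparisons. The bound was 1.1 for COR28, 1.19 for COR27, 2.28 for PIF5 and 2.73 for PIF4. As folds, the bounds on control medium were 1.3 for CDF3, 1.43 for GRP7 and 1.38 for GRP8. On paraquat the bounds were wider, from 0.54 for CDF3 to 3.82 for PIF4.

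The clock genes upstream of these outputs changed in the same libraries, in lists chosen with earlier results of these data known. Of 15 morning clock genes 8 rose and 2 fell with paraquat in each genotype, beside the 17.0% and 9.05% of all genes that changed. The median of the 10 listed was 1.56 in WT and 1.95 in the libraries labelled trm4b-1. CCA1, a repressor of evening genes, rose by 2.16 ± 0.18 in WT (adjusted p = 1.26e-06) and by 2.98 ± 0.21 (adjusted p = 1.43e-07) in the libraries labelled trm4b-1, from the authors' deposited tables. LHY, its partner, rose by 1.49 ± 0.17 and 2.70 ± 0.18 in the authors' deposited tables, and its interaction was listed without being called (1.21 ± 0.25, adjusted p = 0.0587). LNK2, a coactivator of clock genes, rose by 1.79 ± 0.11 and 2.1 ± 0.11 in the authors' deposited tables. PRR5, a repressor of CCA1 that acts later in the day than PRR9, was 1 of the 2 that fell, with -1.65 ± 0.12 and -1.93 ± 0.13 in the authors' deposited tables. The other was RVE2, with -0.97 ± 0.18 and -0.96 ± 0.18 in the authors' deposited tables.

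Of 8 evening clock genes 7 fell with paraquat and none rose, again in each genotype, beside 9.01% of all genes that fell in WT and 4.33% in the libraries labelled trm4b-1. The median of the 7 listed was -1.85 in WT and -1.67 in the libraries labelled trm4b-1. TOC1 had -1.85 ± 0.10 and -1.77 ± 0.10, and ELF4, a subunit of the evening complex that represses PIF4 and PIF5, had -3.54 ± 0.23 and -3.12 ± 0.22 in the authors' deposited tables. LUX, the DNA-binding subunit of that complex, had -1.88 ± 0.13 and -1.67 ± 0.13 in the authors' deposited tables. In WT, COR27, COR28, GRP7, GRP8, PIF4 and PIF5 thus changed in the direction of the evening genes, and CDF1 and CDF3 in that of most morning genes. PIF4 and PIF5 fell in WT, as did subunits of the evening complex, their repressor. ELF4 and LUX also fell in the libraries labelled trm4b-1, where PIF4 and PIF5 were not listed. A link between the RNA of these subunits and that of PIF4 and PIF5 was not tested. A difference in harvest hour between the groups, which the labels do not give, was not tested.

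Genes closer to single members gave counts to be read beside the 17.0% of all genes called in WT and the 9.05% called in the libraries labelled trm4b-1. Of 8 regulators, relatives and targets of the CDF proteins, 2 fell in WT, 1 fell in the libraries labelled trm4b-1 and none rose. FKF1, the light-sensing F-box protein that targets CDF proteins for degradation, had -3.77 ± 0.23 (adjusted p = 3.98e-08) and -4.17 ± 0.29 (adjusted p = 1.67e-07) in the authors' deposited tables. The other called gene in WT was COG1 (AT1G29160), a relative of the CDF genes, with -0.46 ± 0.14 in the authors' deposited table. CO and FT, the flowering genes downstream of the CDF proteins, were not listed in any table. Of 6 further PIF family genes 2 rose and 1 fell in WT and none was listed in the libraries labelled trm4b-1. UNE10 had 2.46 ± 0.67, PIL1 1.41 ± 0.29 and PIF6 -0.58 ± 0.13 in the authors' deposited table. Of 8 PIF target genes only XTR7, a xyloglucan-modifying enzyme gene, was called in WT (-1.07 ± 0.17), and only the auxin synthesis gene YUC8 in the libraries labelled trm4b-1 (0.54 ± 0.13), in the authors' deposited tables.

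Other cold-regulated genes that were called had smaller differences than COR27 and COR28. Of 13 cold and HY5 genes 3 fell in WT, beside 9.01% of all genes, with the dehydrin gene COR47 at -1.09 ± 0.12, HY5 at -0.56 ± 0.14 and COR413-PM1 at -0.54 ± 0.09 in the authors' deposited table. COR47 (-0.54 ± 0.12) and COR413-PM1 (-0.36 ± 0.09) also fell in the libraries labelled trm4b-1, where KIN1 rose (1.07 ± 0.27) in the authors' deposited table. These stand beside 4.33% of all genes that fell and 4.72% that rose there. COR47 was also lower on control medium (-0.57 ± 0.12, adjusted p = 0.0215) in the libraries labelled trm4b-1, from the authors' deposited table. CBF1, CBF2 and CBF3, the cold-induced activators of this group, were not listed in any table. Of 8 other glycine-rich RNA-binding protein genes none was called in either paraquat comparison. The shares of all genes called there were 17.0% in WT and 9.05% in the libraries labelled trm4b-1. The authors' deposited tables listed 1 of the 8, GR-RBP5, at 0.38 ± 0.13 in WT.

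**Figure D5:**
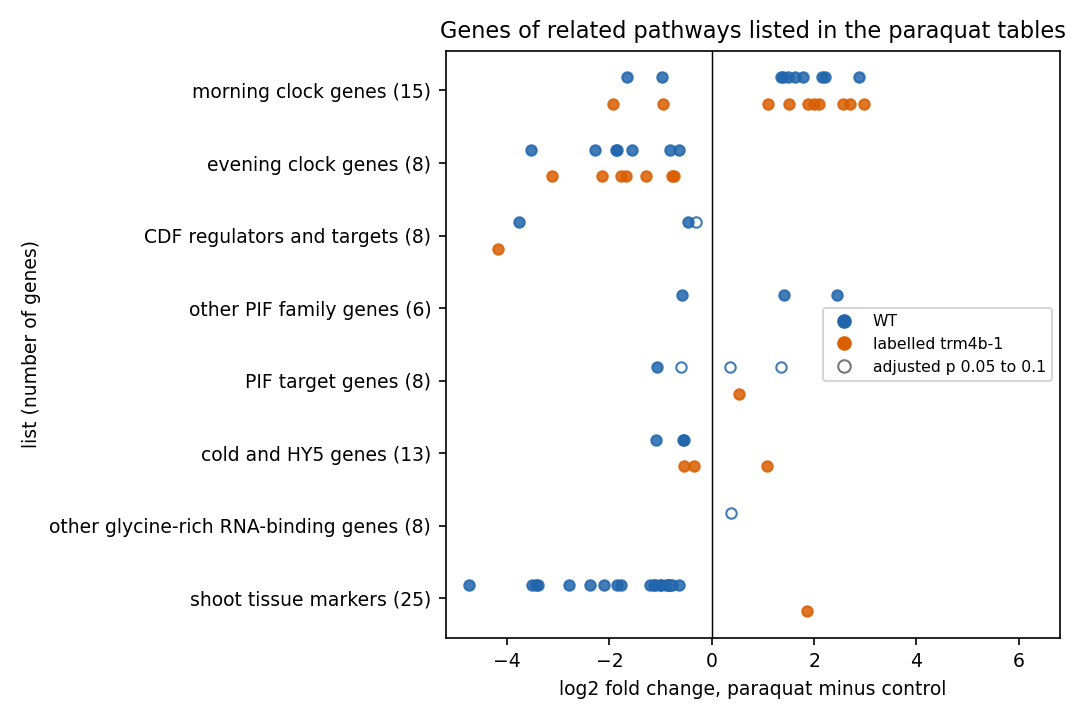
Log2 fold change with paraquat (x axis) of the genes of 8 related lists that the tables listed, in WT (blue) and in libraries labelled trm4b-1 (orange), with open circles for genes not called. Evening clock genes lie below 0 in both, 8 of 10 listed morning clock genes lie above 0 in both, and listed shoot tissue markers lie below 0 in WT, where 19 were called.

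Markers of shoot tissue, which a root sample could hold in small amounts, moved with paraquat in WT. Of 25 genes for light harvesting, photosystems and carbon fixation, 19 fell and none rose in WT, beside 9.01% and 7.99% of all genes, with listed values from -4.75 to -0.65 in the authors' deposited table. None fell and 1 rose (LHCB2.1, 1.87 ± 0.53) in the libraries labelled trm4b-1, beside 4.33% and 4.72% of all genes, in the authors' deposited table. On control medium RBCS1A was lower in the libraries labelled trm4b-1 (-1.87 ± 0.36) in the authors' deposited table. It was the only marker called there, beside 2.03% of all genes. A further 3 markers were listed without being called, beside 3.65% of all genes listed. The interaction table listed 3 markers and called none, beside 0.943% and 0.318% of all genes. A difference in paraquat response between the genotypes was thus not called for any marker. PIF4, PIF5 and GRP8 were called in WT alone, where these markers fell, and the part of shoot tissue in those values was not tested. COR27, COR28, GRP7, CDF1 and CDF3 were called in both genotypes and CDF5 in the libraries labelled trm4b-1 alone, and the part of shoot tissue in these values was not tested either.

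Genes with the most similar pair of paraquat responses were taken for the member of each family with the lowest adjusted p in WT, by Euclidean distance over both log2 fold changes among the genes listed in both tables. Nearest to COR28 were JMJD5, a JmjC domain gene (-3.52 ± 0.29 and -4.13 ± 0.34), FKF1 and the spliceosomal RNA gene U6-1 (-4.12 ± 0.96 and -4.04 ± 1.1), in WT and the libraries labelled trm4b-1, in the authors' deposited tables. JMJD5 was the only gene within a distance of 0.25. Nearest to GRP7 were the small nucleolar RNA gene SNOR111 (-1.94 ± 0.28 and -1.99 ± 0.29), the B-box gene BBX8 (-2.01 ± 0.12 and -1.85 ± 0.11) and HSFA6B (-1.90 ± 0.35 and -1.99 ± 0.42) in the authors' deposited tables, with 9 genes within 0.25. CDF3 had 99 genes within 0.25, of which AT3G28160, GSTU9 and MYB51 were nearest, so its pattern was a common one. PIF4 was not listed in both tables and was not compared.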

How the data were processed

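RNA of roots was sequenced in 12 samples, grouped from their labels into WT and trm4b-1, each on control medium and on paraquat, with 3 samples per group. Trimmomatic, TopHat, limma and the build TAIR10 are named in the submitters' processing notes, without versions. How reads were counted, normalized and filtered, whether by strand, and to what depth is not given in the sources used here. In 5 tables the authors deposited a log2 fold change (base by limma's convention), p-value, adjusted p-value and Storey q-value per listed gene, plus exon coordinates and, as another value, exonic length.

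From adjusted p x rank / p, 33602 genes were tested. For 96 genes listed in the 3 tables concerned, the paraquat difference in trm4b-1 minus that in WT gave the interaction, which ties the tables' signs to each other. Requiring the variances to add up there gave 15.3 total degrees of freedom. Standard errors and 95% intervals follow from these. A range for an unlisted difference is the t value at the listing limit times the gene's root mean square standard error in its listed paraquat comparisons. The ratio of a gene's standard errors between the paraquat tables had a 5th to 95th percentile range of 0.889 to 1.10 over 2887 genes. For the other tables the 5th percentile was as low as 0.503 and the 95th as high as 1.36, so these ranges are approximate.

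Members and 8 lists with 91 genes were chosen with earlier results of these data known. All 10 members are named, with up to 4 called genes per list and table, the 3 genes nearest to a member, TRM4B, and AT1G69572, which was added after its values were seen. Promoters and coding sequences are RefSeq TAIR10.1 sequences, placed by its annotation, in which 99.0% of 77616 inner exon edges of the deposited genes recur at the same coordinate. The promoter of COR27 is not reported here. Identity is over aligned coding bases of the longest isoforms (Biopython 1.88). Values were computed with scipy 1.17.1, pandas 2.3.3 and numpy 2.4.6 in Python 3.11.15 and drawn with matplotlib 3.10.9.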

Additional observations from a re-analysis of the deposited data

How the results depend on the processing

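The number of members called was 8 with paraquat in WT. It was 6 with an adjusted p under 0.01 (beside 10.3% of all genes), 9 with any listed gene (21.6%), 6 with a log2 change of at least 1 as well (5.53%), 9 with a Storey q under 0.05 (20.2%) and 5 with Holm adjustment (1.93%). GRP8, PIF4 and PIF5 were the members lost under Holm adjustment. In the libraries labelled trm4b-1 the count of 6 stayed at 6 under these alternatives (beside 5.15%, 12.2%, 3.19% and 12.2% of all genes, in the same order) except Holm adjustment, which left 4 without CDF1 and CDF5 (1.34%). In both genotype comparisons and the interaction it was 0 under each of them. Morning and evening clock counts of 10 and 7 were 9 and 6 in both genotypes under Holm adjustment. With paraquat in WT, that adjustment took the shoot markers from 19 to 1 and the cold and HY5 genes from 3 to 1. It took the other PIF genes from 3 to 0 and the CDF regulators, relatives and targets from 2 to 1. The PIF targets went from 1 to 0. The last count was 4 by listing or Storey q, and the cold and HY5 count was 1 where a log2 change of 1 was required. The cold and HY5 count of 3 in the libraries labelled trm4b-1 was 1 with an adjusted p under 0.01 and 0 under Holm adjustment, and the shoot marker and the PIF target called there were lost under both. Values and directions are those of the tables and cannot change with these settings. With 8 degrees of freedom in place of 15.3, the rebuilt differences of CDF1, CDF5 and COR28 between the genotypes had intervals that left out 0. The variances of the tables add up at 15.3, not at 8. An evening element was found in 3 of the 9 members searched, in 2 with the bases before the start alone (2.11% of all genes), and in 2 within 1000 bases before it (6.66%), a window chosen after seeing the data. COR28 was lost in both. No paired analysis was possible because the tables hold no values per sample, and leaving out single replicates was not run for the same reason. Apart from the interaction of 6 members, no unlisted value of a member could be rebuilt from other tables. The distance with the control genotype table was not run, since no member is listed there.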
